A study of Zea mays with 9 samples.

Results

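Gene expression in whole maize kernels at 4 days after pollination (DAP) was set against that at 3 DAP. The comparison used 2 of the 9 libraries of the series, chosen by their stage labels. Both came from the inbred line B73, grown in a greenhouse and self-pollinated, and each holds whole kernels pinched off at the base, so that maternal pericarp and nucellus, endosperm and embryo were sequenced together. Poly(A) RNA was sequenced on the SOLiD 4 system, and by the labels' protocols 3 biological replicates were collected per stage, of which 1 was sequenced. Each side is therefore 1 biological sample, the difference has no replicate check, and no p-value is given. The only repeat of a stage is at 0 DAP, where libraries a and b are technical replicates of B73 kernels, and their difference was used as the yardstick of technical spread. The other libraries are whole B73 kernels at 2 and 6 DAP, and B73 endosperm freed of embryo and pericarp at 8, 10 and 12 DAP.

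After fertilization the maize endosperm first develops as a coenocyte, in which nuclei divide without walls between them. Walls then form around the nuclei during cellularization, after which cells divide further and take up fates such as the basal transfer layer, which imports nutrients from the mother plant, the embryo-surrounding region and the aleurone. In a whole kernel of this age most of the tissue is maternal, and the nucellus and pericarp grow while the endosperm is still small. In such bulk samples, fewer cells of a type and less RNA per cell cannot be told apart.

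The 4 DAP library held 19754760 reads in gene models and the 3 DAP library 22858089, within the range of 17716275 to 40145710 over all 9 libraries. Levels are given as v, CPM (read counts relative to library size) after scaling by the trimmed mean of M values (TMM) over all 9 libraries. A v of 10 stood for 296 reads at 4 DAP and 340 reads at 3 DAP. Of 110028 gene models, 32555 had a v of at least 1 at 4 DAP and 32878 at 3 DAP, and the 100 models with most reads took 9.08% of reads at 4 DAP and 8.50% at 3 DAP. Log2 ratios are of (v + 1), which understates the change of low genes, and fold ratios of v carry exact binomial 95% intervals, which cover counting error only.

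The 4 and 3 DAP profiles lay close to each other, but farther apart than the technical pair. Over 44687 models the log values of 4 and 3 DAP had a Pearson r of 0.943 and a Spearman rho of 0.921, against 0.969 and 0.956 for 0 DAP b and a. These are correlations across genes within a pair of libraries, and genes are not independent replicates. Among models with a mean v of 10 to 100, the log2 ratio had an SD of 0.58 between 4 and 3 DAP and of 0.37 in the technical pair. Above a mean v of 100 the SD was 0.47 between 4 and 3 DAP and 0.26 in the technical pair. The share of models beyond the 99th percentile of the technical pair's absolute log2 ratio was 5.07% at a mean v of 10 to 100 and 6.53% above 100.

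**Figure D1:**
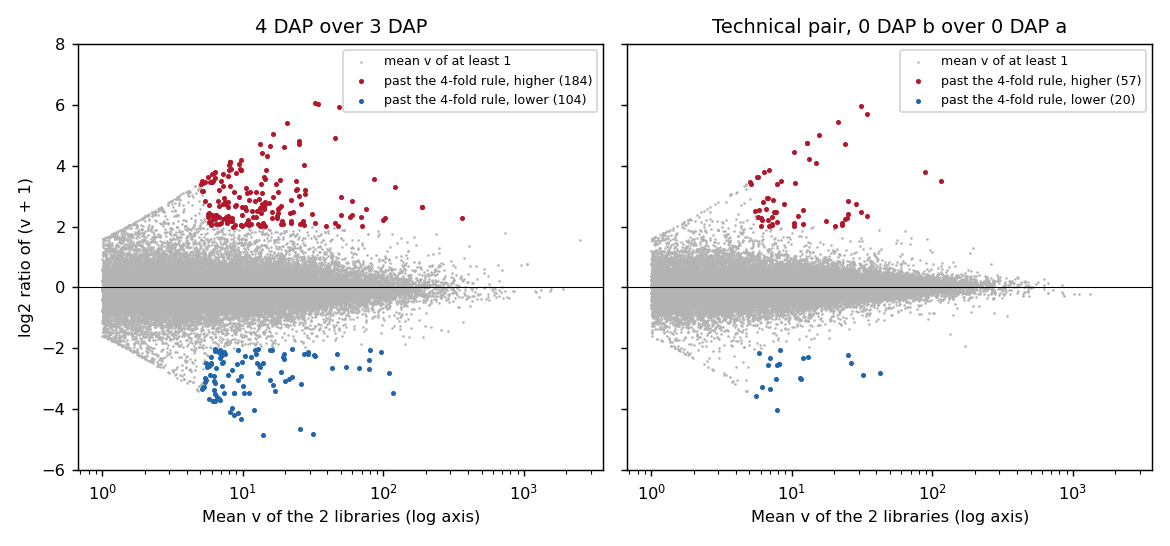
Log2 ratio of (v + 1) against the mean v of the 2 libraries (log axis), for 4 DAP over 3 DAP on the left and the technical pair on the right. Each point is a gene model with a mean v of at least 1, and coloured points pass the 4-fold rule, 184 higher and 104 lower at 4 DAP against 57 and 20 in the technical pair.

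A model was called when the larger v reached 10, the ratio of (v + 1) came to 4 or more and its interval left out 1. This 4-fold rule called 184 models higher at 4 DAP, 1.23% of the 15000 models that reached a v of 10, and 104 lower, 0.693%. In the technical pair the same rule called 57 models higher in b, 0.396% of 14382, and 20 lower, 0.139%. Of the 184 models called higher at 4 DAP, 4 also passed the rule in the technical pair, and of the 104 called lower 0 did. A wider rule asked for a ratio of 2 and for a log2 ratio beyond the technical pair's 99th percentile at the same level. It called 486 models higher at 4 DAP, 3.24%, and 352 lower, 2.35%, against 124 higher, 0.862%, and 53 lower, 0.369%, in the technical pair, whose own spread set the limit. Just inside the 4-fold rule stood GRMZM2G050705, with a log2 ratio of 2.002, and GRMZM2G020150, with -2.02. Just outside stood TENA2, of a protein family that salvages thiamine precursors, with 1.99, and GRMZM2G154904, with -1.998.

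The neighbouring stages sorted the called models into unlike kinds. Of the 184 called higher, 39 formed a step, with 4 and 6 DAP each at least 4-fold above both 2 and 3 DAP. On the same (v + 1) scale, another 17 stood apart at 4 DAP alone, at least 4-fold above 2, 3 and 6 DAP. These 17 included HB85 and models of 1 sequenced clone, described below, several with equal counts, so the 17 may not be separate observations. Their median v at 4 DAP, 16.3, was that of the models with 484 reads. A further 52 stood apart at 3 DAP, which was at least 4-fold below 2, 4 and 6 DAP, and 76 met none of these definitions. Of the 104 called lower, 14 formed a step down, 24 stood apart at 4 DAP, 21 stood apart at 3 DAP and 45 met none of them. For the models that stood apart, the difference between 4 and 3 DAP therefore rests on 1 library that departs from the stages on either side of it. Whether this is development, the particular sample or the library cannot be told apart with 1 sample a stage.

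The 2 and 6 DAP libraries entered neither rule except through the shared scaling. Of 173 measured models called higher at 4 DAP, 111 (64.2%) were also higher at 6 DAP than at 2 DAP, with a median log2 ratio of 0.52. Of 94 measured models called lower, 64 (68.1%) were lower at 6 DAP than at 2 DAP, with a median of -0.63. Over all measured models 53.5% were higher and 46.5% lower at 6 DAP, with a median of 0.07. Of the models past the wider rule and higher at 4 DAP, 267 of 475 (56.2%) were higher at 6 DAP than at 2 DAP. That share was near the 53.5% over all measured models. Of those lower at 4 DAP, 248 of 342 (72.5%) were lower at 6 DAP than at 2 DAP, beside 46.5% over all.

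**Figure D2:**
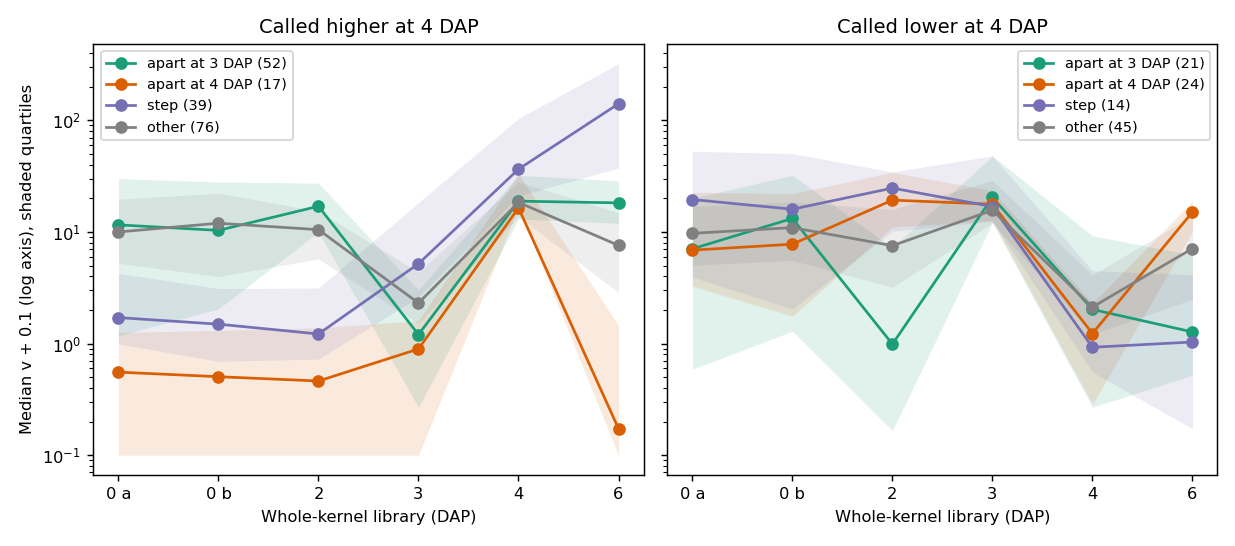
Median v + 0.1 (log axis) of the models called higher (left) and lower (right) at 4 DAP in the whole-kernel libraries, by the kind of profile, with quartiles shaded and the number of models in brackets. The lines were sorted by the same values that they show: the 39 step models had a median v of 36.4 at 4 DAP and 5.09 at 3 DAP, and 141 at 6 DAP.

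The step models, most of which had no usable gene name, included large increases that lasted to 6 DAP. GRMZM2G039538 had a v of 87.9 at 4 DAP and 1.94 at 3 DAP, and its v was at most 0.980 at 0 and 2 DAP and 511 at 6 DAP. GRMZM2G150091 had 159 at 4 DAP and 12.6 at 3 DAP, and 762 at 6 DAP. GRMZM2G068513 had 221 at 4 DAP and 21.4 at 3 DAP, and levels of 243 at 6 DAP and 200 in 8 DAP endosperm. All 3 were higher at 3 DAP than at 2 DAP as well, where their v was 0.296, 1.22 and 0.592, so that their levels climbed over successive libraries. GRMZM2G355742, with 45.2 at 4 DAP and 4.77 at 3 DAP, reached 730 at 6 DAP and still had 132 in 12 DAP endosperm.

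The named step model was expB6, a beta-expansin, of the family of wall proteins that loosen grass cell walls. Its v was 2.80 and 1.49 in the 0 DAP libraries, 11.7 at 2 DAP, 14.0 at 3 DAP, 106 at 4 DAP and 167 at 6 DAP, and at most 4.15 in endosperm at 8, 10 and 12 DAP. It had 3149 reads at 4 DAP and 475 at 3 DAP, a ratio of 7.60 (6.90 to 8.39) and a log2 ratio of 2.84, against -0.61 in the technical pair. The 4 and 6 DAP kernels were thus the high libraries, and every other library lay below a v of 15.

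The step down included rf2c, a gene of the aldehyde dehydrogenase family named after the fertility restorer rf2a. Its v lay between 32.8 and 47.3 in the 4 libraries from 0 to 3 DAP, and was 4.35 at 4 DAP and 5.45 at 6 DAP. The 129 reads at 4 DAP and 1608 at 3 DAP gave a ratio of 0.0920 (0.0762 to 0.110) and a log2 ratio of -3.17. Endosperm at 8 to 12 DAP held 2.14 to 5.81, so that the low level at 4 DAP was also that of all later libraries. GRMZM2G168877, without a usable name, showed a like drop, with 1.05 at 4 DAP and 50.2 at 3 DAP, and 0.677 at 6 DAP.

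The largest ratios belonged to models that stood apart in 1 library. GRMZM2G023396 had 1949 reads, a v of 65.8, at 4 DAP and 0 reads at 3 DAP, at least 745-fold higher at 4 DAP when 3 DAP is set to the floor of 3 reads, and at least 605-fold by the exact interval. Its v was at most 0.352 in every other library. GRMZM2G067055 had 68.7 at 4 DAP and 0.0589 at 3 DAP, but 37.8 at 2 DAP and 49.1 at 6 DAP, so that 3 DAP was the library that stood apart. GRMZM2G064758 likewise had 95.9 at 4 DAP and 0.589 at 3 DAP, with 51.5 at 2 DAP and 78.0 at 6 DAP.

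In the other direction, GRMZM2G094925 had 0 reads at 4 DAP and 944 reads, a v of 27.8, at 3 DAP, at least 275-fold lower at 4 DAP by the same floor and at least 223-fold by the exact interval, and at most 0.210 elsewhere. GRMZM2G413835 had 1.21 at 4 DAP and 61.7 at 3 DAP, with 0.428 at 2 DAP and 0.750 at 6 DAP. Conversely, GRMZM2G341405 had 18.6 at 4 DAP and 217 at 3 DAP, with 155 at 2 DAP and 140 at 6 DAP, and here 4 DAP was the low library.

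HB85, of the homeodomain transcription factors, had the largest ratio of any named gene and was high in 1 of the 9 libraries. It had 1470 reads, a v of 49.6, at 4 DAP and 32 reads, a v of 0.942, at 3 DAP, a ratio of 52.7 (37.1 to 77.3). Its v was at most 1.28 in the other libraries, and 0.0183 at 6 DAP. Several models of 1 sequenced clone had the same profile: AC210202.3_FG008 had 1476 reads at 4 DAP and 27 at 3 DAP, and AC210202.3_FG007 had 977 reads at 4 DAP and 1 at 3 DAP. AC210202.3_FG009, AC210202.3_FG013, GRMZM2G495263, GRMZM2G495266 and GRMZM2G495279 had 484 reads each at 4 DAP and at most 6 at 3 DAP. Equal counts in several models can come from reads counted more than once, which was not tested, so these models may not be separate observations.

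**Figure D3:**
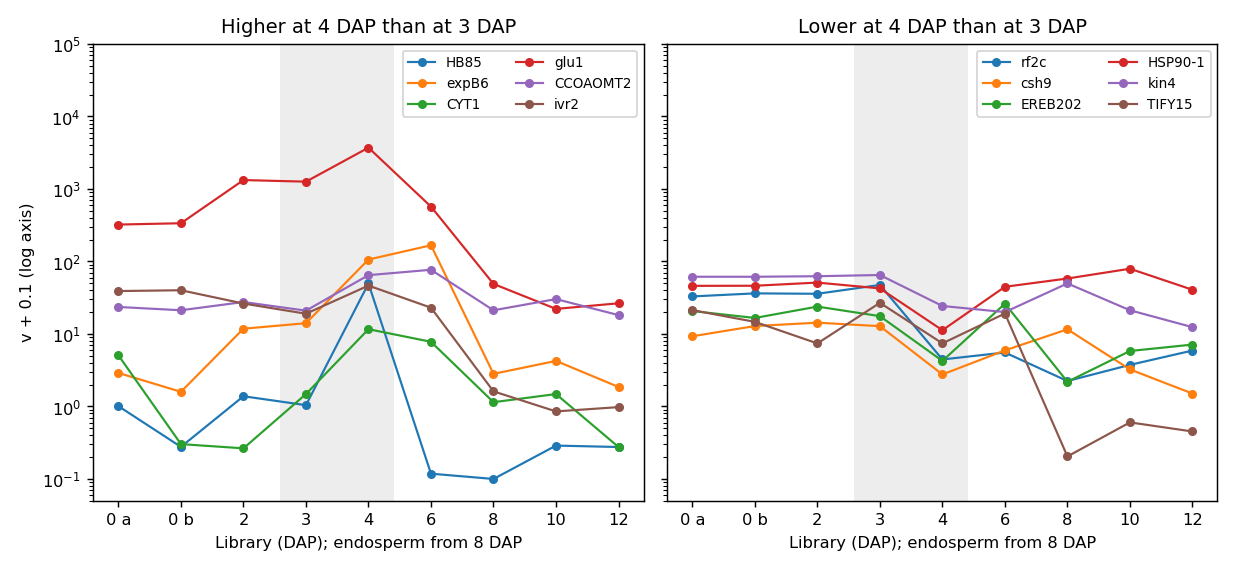
Level of 12 named genes as v + 0.1 (log axis) in each of the 9 libraries in order of stage, with 3 and 4 DAP shaded; genes higher at 4 DAP are on the left and lower ones on the right. The line of expB6 stays up at 6 DAP (v of 167), that of HB85 is up at 4 DAP alone (49.6), and that of HSP90-1 is down at 4 DAP alone (11.2).

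Among the named genes, 25 passed the wider rule upward and 25 downward, of 1074 that reached a v of 10 and 1679 detected, beside 3.24% and 2.35% over all models that reached it. Of these, 3 and 1 passed the 4-fold rule. The third called upward by the 4-fold rule was CYT1, with 11.5 at 4 DAP and 1.38 at 3 DAP, a ratio of 8.34 (6.14 to 11.6). It varied almost as widely between the technical libraries, with 0.203 in b and 4.97 in a, a log2 ratio of -2.31 beside its 2.40 between 4 and 3 DAP.

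The most abundant named gene that rose was glu1, a beta-glucosidase that releases defensive benzoxazinoids from their glucosides. Its v was 3713 at 4 DAP and 1262 at 3 DAP, beside 323 and 337 in the 0 DAP libraries, 1326 at 2 DAP and 571 at 6 DAP. The related glu2 had 201 at 4 DAP and 64.8 at 3 DAP, with 128 at 2 DAP and 39.8 at 6 DAP. Both were thus highest at 4 DAP among all libraries, with ratios of 2.94 (2.91 to 2.98) for glu1 and 3.10 (2.95 to 3.25) for glu2. Because the symbols glu1 and glu2 name a pair of related genes, reads that fit both could have been split between them.

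Genes of carbohydrate and vitamin metabolism were also among those that rose. Sucrose phosphate synthase sps1, which makes sucrose, had 25.3 at 4 DAP and 6.53 at 3 DAP, and 103 at 6 DAP. Vacuolar invertase ivr2, which cleaves sucrose, had 46.4 at 4 DAP and 18.9 at 3 DAP, with 26.2 at 2 DAP and 22.9 at 6 DAP, a call that was lost with library totals as the scaling. The thiamine synthesis gene thi1 had 37.5 at 4 DAP and 11.7 at 3 DAP, and 119 at 6 DAP. In the sucrose cleavage list ivr2 alone passed a rule, 1 of 4 members that reached a v of 10, beside 3.24% that rose over all models. The cell wall invertase mn1, which feeds the basal endosperm, had 13.3 at 4 DAP and 20.1 at 3 DAP. The sucrose synthase sh1 had 112 at 4 DAP and 83.4 at 3 DAP. mn1 stood at 77.9 at 6 DAP, so its higher level came after 4 DAP.

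Of the 8 wall expansion genes that reached a v of 10, 2 rose and 1 fell, and of 12 wall synthesis genes 1 fell. Over all models that reached it, 3.24% rose and 2.35% fell. In the list of cell wall expansion, with 10 detected members and a median log2 ratio of 0.17 against -0.05 over all models, expB6 and xth1 rose and the alpha-expansin expa1 fell. xth1, whose enzyme cuts and rejoins xyloglucan, had 14.8 at 4 DAP and 5.47 at 3 DAP, and expa1 had 6.92 at 4 DAP and 19.0 at 3 DAP. In the list of cell wall synthesis, with 14 detected members and a median of 0.23, the cellulose synthase-like gene CSLD1 fell, with 7.93 at 4 DAP and 19.99 at 3 DAP, a call that was lost with library totals. The cellulose synthase genes cesa6 and cesa8 passed no rule but had 333 and 276 at 4 DAP and 194 and 167 at 3 DAP, against 434 and 337 at 6 DAP.

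Higher values at 4 DAP were seen in 5 of 6 detected phenylpropanoid genes and 6 of 6 detected flavonoid genes. Over all models 15289 of 33140 had a ratio above 0. CCOAOMT2, which methylates a precursor of lignin, rose, 1 of 4 phenylpropanoid genes that reached a v of 10, beside 3.24% over all models. Its v was 64.7 at 4 DAP and 20.9 at 3 DAP, a ratio of 3.10 (2.84 to 3.38). It had between 21.1 and 27.5 at 0 and 2 DAP and 76.7 at 6 DAP. In its list of 6 detected members the median was 0.43, and cad1, of the alcohol dehydrogenase step of lignin synthesis, had 13.5 at 4 DAP and 4.30 at 3 DAP without passing a rule. All 6 detected genes of the flavonoid pathway had a ratio above 0, with a median of 0.92 against -0.18 in the technical pair, but none passed a rule and only 1 reached a v of 10. That gene, chi1, a chalcone isomerase, had 741 reads at 4 DAP and 383 at 3 DAP, a ratio of v of 2.22 (1.96 to 2.52), while the hydroxylase f3h had a v of 4.32 at 4 DAP and 0.442 at 3 DAP.

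The list with most members past the wider rule downward was that of mitosis. Of its 26 genes of mitosis and cyclins, 25 were detected. Of these, 19 had a ratio below 0, 8 fell by the wider rule and 0 rose, with a median log2 ratio of -0.47 against -0.05 over all models and 0.12 for the list in the technical pair. The 8 are cyclins and kinesins, the motor proteins that move along microtubules, of which several act in the spindle and the phragmoplast. Among all models 2.35% of those that reached a v of 10 fell by this rule, against 8 of the 20 members that did so. The members' count is a description, since the list was chosen with earlier results of these data known.

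Among the cyclins, cyclin4 had 30.2 at 4 DAP and 72.6 at 3 DAP, a ratio of 0.416 (0.385 to 0.449). At the other stages of whole kernels its v was 63.9, 70.7 and 98.5 at 0 a, 0 b and 2 DAP and 45.2 at 6 DAP, so that 4 DAP was its lowest whole-kernel library. cyclin8 had 6.07 at 4 DAP and 16.8 at 3 DAP, and csh9, listed also as a cyclin, had 2.67 at 4 DAP and 12.7 at 3 DAP, a call that was lost with DESeq2 size factors. In 8 DAP endosperm the v of cyclin8 was 14.6 and that of csh9 11.5, both above the 4 DAP kernels.

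Among the kinesins, kin4 had 24.2 at 4 DAP and 65.0 at 3 DAP, a ratio of 0.373 (0.342 to 0.406). It had been level before, with 61.5, 61.4 and 62.5 at 0 a, 0 b and 2 DAP, and it stood at 19.9 at 6 DAP and 49.7 in 8 DAP endosperm. krp13 had 13.8 at 4 DAP and 40.3 at 3 DAP, and 8.49 at 6 DAP. KIN8 had 20.3 at 4 DAP and 47.7 at 3 DAP, kin11 had 7.08 at 4 DAP and 19.0 at 3 DAP, and krp6 had 14.4 at 4 DAP and 32.4 at 3 DAP. All 5 were lower at 6 DAP than at 2 DAP as well, libraries that the rule did not compare.

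Some other members of the list changed less between the stages, though 19 of the 25 detected had a ratio below 0. The cyclin-dependent kinase cdc2 had 56.5 at 4 DAP and 48.7 at 3 DAP, and its partner cks1 had 37.3 at 4 DAP and 48.8 at 3 DAP. The cyclin cycD2 had 49.4 at 4 DAP and 48.0 at 3 DAP, and the kinesin kin9 had 117 at 4 DAP and 132 at 3 DAP. The cohesin gene SMC3, whose protein holds sister chromatids together, had 216 at 4 DAP and 263 at 3 DAP. The summed v of the list was 786 at 4 DAP and 1056 at 3 DAP, against 1182 at 2 DAP and 860 at 6 DAP.

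**Figure D4:**
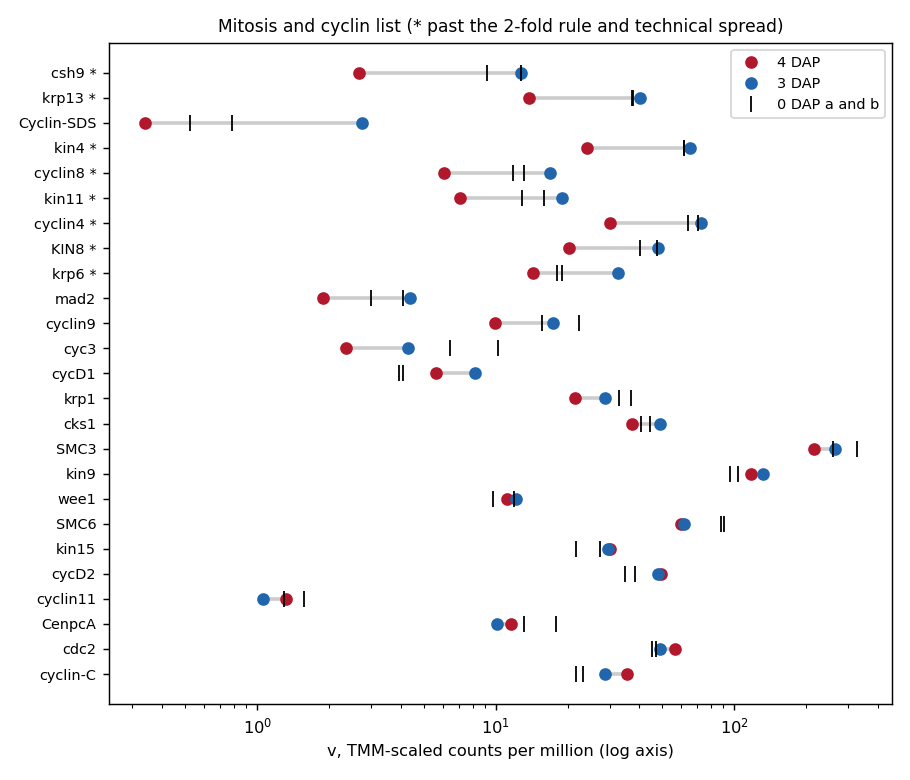
v (log axis) of the 25 detected genes of the mitosis and cyclin list at 4 DAP (red) and 3 DAP (blue), with the technical pair at 0 DAP as black ticks; stars mark the 8 genes past the wider rule. The red points lie left of the blue ones in 19 genes, and for cdc2, cyclin-C and 4 others they lie to the right.

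Histones, which package newly copied DNA, had the lowest median of the lists with at least 5 detected members, -0.62 over 8 genes, but none passed a rule and their median was -0.37 in the technical pair. The histone gene his2a1 had 82.8 at 4 DAP and 156 at 3 DAP, with 183 at 2 DAP and 95.5 at 6 DAP, and his2b2 had 93.2 at 4 DAP and 166 at 3 DAP. Their summed v was 567 at 4 DAP and 857 at 3 DAP, against 507 and 650 in the technical libraries b and a. DNA replication genes moved less, with a median of -0.17 over 10 genes and none past a rule. The sliding clamp gene pcna1 had 30.9 at 4 DAP and 41.3 at 3 DAP, and the helicase gene MCM7 had 56.3 at 4 DAP and 52.9 at 3 DAP. HMG5 and nfd101, both of high-mobility-group chromatin proteins, fell, with 6.07 and 36.1 at 4 DAP and 19.7 and 87.6 at 3 DAP. The call of nfd101 was lost with library totals. They were the 2 that fell of 42 chromatin regulators that reached a v of 10, beside 2.35% over all models. Of the 48 detected in that list, 20 had a ratio above 0, and the median was -0.13.

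The tubulin and actin list had a median of -0.21 over 15 genes, against -0.13 in the technical pair. Of its 14 genes that reached a v of 10, 1 rose, beside 3.24% over all models. The tubulin gene tub3 had 17.9 at 4 DAP and 5.92 at 3 DAP, a ratio of 3.03 (2.57 to 3.58), and 56.4 at 6 DAP. The levels of tub4, 13.6 at 4 DAP and 5.06 at 3 DAP, passed no rule.

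Genes of jasmonate and lipoxygenase metabolism included 3 that fell, of 11 that reached a v of 10 and 21 detected, beside 2.35% over all models that reached it, with a median of -0.35 and -0.15 in the technical pair. lox10, a lipoxygenase, had 7.22 at 4 DAP and 21.0 at 3 DAP, with 57.4, 45.4 and 11.8 at 0 a, 0 b and 2 DAP and 19.9 at 6 DAP. lox6, of the same family, had 7.86 at 4 DAP and 20.05 at 3 DAP, but 53.3 at 6 DAP. The allene oxide cyclase gene aoc2, of jasmonate synthesis, had 23.3 at 4 DAP and 52.5 at 3 DAP, with 26.4 at 2 DAP and 21.9 at 6 DAP. The call of lox6 was lost with library totals, and that of aoc2 with library totals, DESeq2 size factors and a pseudocount of 0.1. TIFY15, of the family that holds the jasmonate repressors, fell too, with 7.32 at 4 DAP and 26.8 at 3 DAP, with 7.31 at 2 DAP and 19.0 at 6 DAP. In the list of 20 TIFY and ZIM genes, which was added after the values were seen, 17 had a ratio below 0 and the median was -0.28, against -0.21 in the technical pair. Of the 14 that reached a v of 10, 1 fell, beside 2.35% over all models.

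For auxin, the hormone that patterns cell fate in the endosperm and embryo, 27 of 38 detected genes had a ratio below 0, against 17851 of 33140 over all models, with a median of -0.36 against 0.06 in the technical pair, and none passed a rule. The auxin response factor ARF4 had the lowest ratio, with 0.641 at 4 DAP and 8.15 at 3 DAP, under the level of 10 that the rules ask for. It had 36.6 and 35.8 at 0 DAP and 10.96 at 2 DAP, so that its level was lower in each later whole-kernel stage. AUX3 had 16.5 at 4 DAP and 26.4 at 3 DAP, and 91.7 at 6 DAP.

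Of the other transcription factors, EREB202, of the AP2/ERF family, fell, with 4.15 at 4 DAP and 17.5 at 3 DAP, though it had 23.8 at 2 DAP and 26.1 at 6 DAP. The chaperone gene HSP90-1 had the same profile, with 11.2 at 4 DAP and 42.4 at 3 DAP, and 51.0 at 2 DAP and 44.7 at 6 DAP. The AP2/ERF list did not share the fall of EREB202. Of 27 detected AP2/ERF genes, 19 had a ratio above 0, against 15289 of 33140 over all models. Their median was 0.31, against -0.22 in the technical pair, and was 0.16 at a mean v of 10. Of the 14 that reached a v of 10, 1 fell, beside 2.35% over all models. In the heat shock list, 8 of 13 detected genes had a ratio below 0. Its median was -0.19, but 0.42 at a mean v of 10. Of its 5 genes that reached a v of 10, 1 fell, beside 2.35% over all models. bHLH116 had 64.3 at 4 DAP and 137 at 3 DAP, with 143 at 6 DAP, a call lost with DESeq2 size factors. It was the 1 that fell of 6 bHLH factors that reached a v of 10, beside 2.35% over all models. Of 14 detected SBP-box factors, which act in floral and inflorescence development, 12 had a ratio below 0, against 17851 of 33140 over all models, with a median of -0.44 against 0.06 in the technical pair. Only 6 of them reached a v of 10, and the summed v of the list was 557 at 4 DAP and 563 at 3 DAP. Of the 6, 1 fell, beside 2.35% over all models. It was sbp29, with 9.58 at 4 DAP and 22.0 at 3 DAP, a call lost with DESeq2 size factors and with library totals. The YABBY gene YAB11 rose, with 20.8 at 4 DAP and 7.30 at 3 DAP, and 29.8 at 6 DAP. It was the 1 that rose of 11 zinc finger and other factors that reached a v of 10, beside 3.24% over all models.

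The list of reproductive MADS-box genes, matched by symbol and not chosen as markers of 1 tissue, had a median of 0.34 over 14 genes. In the technical pair its median was -0.08. bde1, a gene of floral patterning, was the 1 that rose of 11 that reached a v of 10, beside 3.24% over all models. It had 93.6 at 4 DAP and 37.6 at 3 DAP, a ratio of 2.49 (2.33 to 2.66). Its v had been 91.0, 86.2 and 116 at 0 a, 0 b and 2 DAP, so that 3 DAP was the low library. The summed v of the list was 2360 at 4 DAP and 1996 at 3 DAP, against 2129 at 2 DAP and 2675 at 6 DAP.

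**Figure D5:**
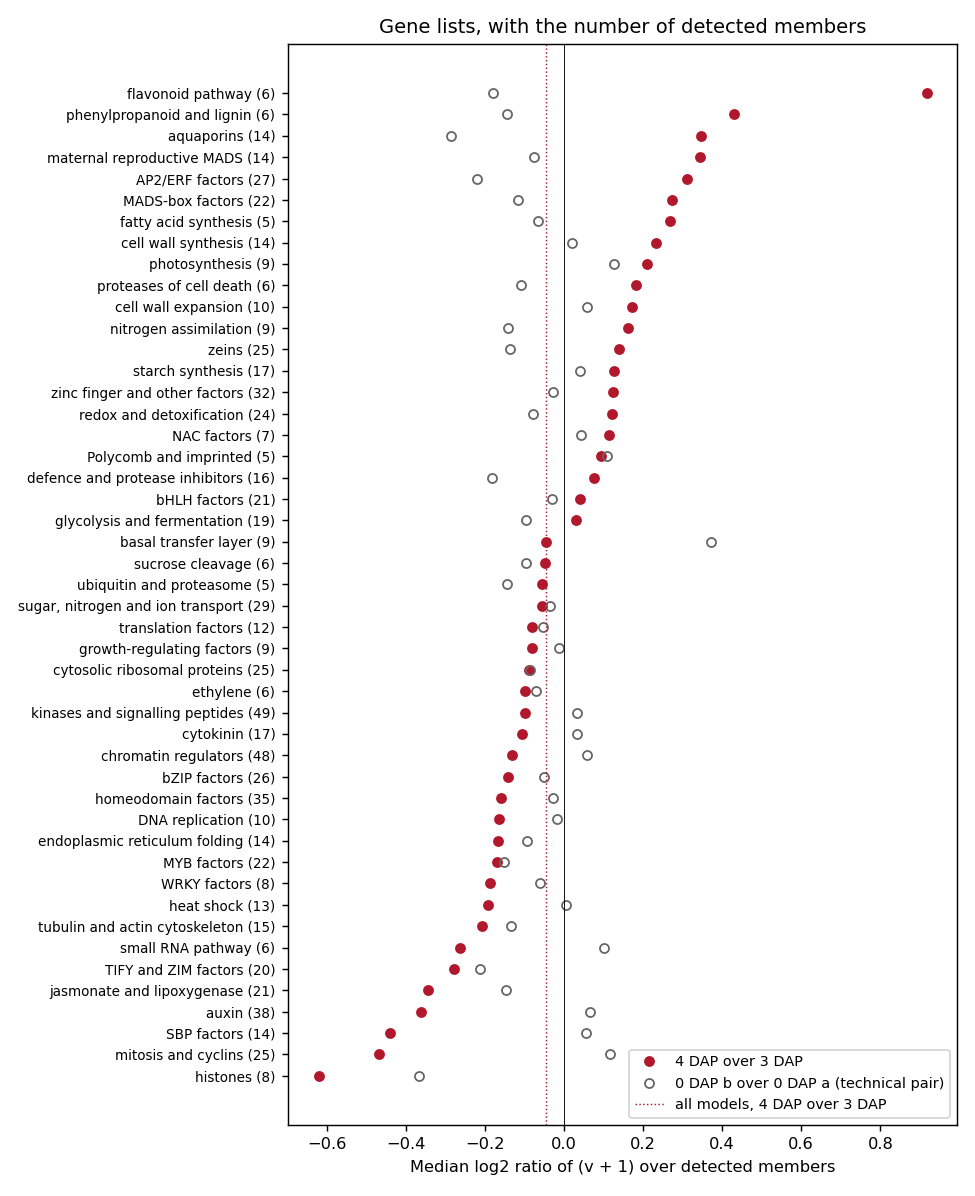
Median log2 ratio of (v + 1) over the detected members of each gene list with at least 5 of them, for 4 DAP over 3 DAP (filled) and 0 DAP b over a (open); the dotted line is the median of all models, -0.05. The list of mitosis and cyclins (-0.47) lies far from its open circle (0.12), whereas histones (-0.62) are low in the technical pair too (-0.37).

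Markers of the kernel's compartments gave a check of what the libraries held. The 5 floral markers of maternal tissue (zmm6, zmm8, zmm29, ZAG1 and zag2) summed to a v of 1575 at 4 DAP and 1430 at 3 DAP, but did not move together. At 4 and 3 DAP, zmm6 had 631 and 487, zmm8 341 and 268, and zmm29 92.4 and 85.0. In contrast, zag2 had 434 at 4 DAP and 504 at 3 DAP, and ZAG1 had 76.6 and 85.7. The 11 basal transfer layer markers summed to 21.9 at 4 DAP and 23.4 at 3 DAP, and to 1149 at 6 DAP, with bap2 at 5.97 at 4 DAP and 7.01 at 3 DAP. The 4 markers of the embryo-surrounding region summed to 5.47 at 4 DAP and 1.06 at 3 DAP, against 0.362 at 2 DAP and 184 at 6 DAP. All 4 were higher at 4 DAP, with 103 reads of esr2 at 4 DAP and 32 at 3 DAP, 36 and 1 of ESR2C, 18 and 3 of ESR3, and 5 and 0 of esr6, levels too low for either rule. ESR2C and esr2 have related names, and reads that fit both may have been counted in either.

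Markers of the other compartments passed neither rule. Of 3 endosperm markers, the Polycomb gene fie1, expressed from the maternal allele in endosperm, had 1.92 at 4 DAP and 0.589 at 3 DAP, and 12.3 at 6 DAP. The other endosperm markers changed less, with NRP1 at 0.506 at 4 DAP and 0.442 at 3 DAP, and o2 at 0.540 and 0.353. The aleurone genes dek1 and cr4, needed for aleurone fate, were lower at 4 DAP, with 90.3 and 33.8 at 4 DAP and 121 and 46.7 at 3 DAP. The other aleurone markers were low, with Nkd1 at 0.945 at 4 DAP and 1.56 at 3 DAP and IDD9 at 0.776 at 4 DAP and 0.530 at 3 DAP. Of 4 embryo markers, lec1 and wus1 had 0 reads at 4 and 3 DAP, kn1, a meristem gene, had 3.61 at 4 DAP and 6.92 at 3 DAP, and the oleosin gene ole1, of seed oil bodies, had 42 reads at 4 DAP and 17 at 3 DAP. The 8 green-tissue markers summed to 1.86 at 4 DAP and 3.83 at 3 DAP. The storage protein genes of the zein list, which are made in later endosperm, summed to 1334 at 4 DAP and 1226 at 3 DAP, and to 1174 and 1308 in the 0 DAP libraries b and a, but to 2.45 at 6 DAP. Zein reads were thus present at 0 DAP already and at about the same level at 4 and 3 DAP. Their origin was not tested. None of the zein genes passed either rule. Without the models whose v at 12 DAP was over 100 times the higher v compared, the 4-fold rule called 184 higher and 104 lower. That step left models out without scaling again, so it cannot show how the zein reads bear on the other models.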

How the data were processed

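The authors deposited, for each of 9 libraries, raw read counts over the same 110028 gene models, without normalization. The submitters' processing notes name bedtools. Not given in the sources used here are its version and role, the aligner, the build, the annotation and how strand and multiply aligned reads were handled. Counts were scaled with TMM in edgeR 4.0.16 (R 4.3.3) over all 9 libraries, and ratios, exact binomial intervals and both rules were computed in Python 3.11.15 (scipy 1.17.1), with a pseudocount of 1 and a minimum v of 10. With 1 biological sample a stage edgeR's test was not run. The 4-fold rule, but not the wider rule, was run on simulated counts with known changes, whose outcome is not given here. A list member or model counts as detected at a mean v of 1 over 4 and 3 DAP.

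Names came from a RefSeq table of Zm-B73-REFERENCE-NAM-5.0, used without coordinates: 18787 model IDs matched, and 2250 had a usable symbol. Genes named are those past the 4-fold rule with a symbol, the 12 highest and 12 lowest past the wider rule, the 4 largest ratios within each list, key genes of the kernel, and the 3 largest ratios each way; others, among them the step models, the clone models and the members named for a list's spread, were chosen after their values were seen. Members and lists were chosen with earlier results of these data known. The alternatives tried were DESeq2 1.42.0 size factors, library totals, TMM on 2 libraries, other pseudocounts, minimum levels and ratios, filtered TMM, thinned counts, 1 model per group of like counts (1030 models in 444 groups agree within 2% in every library), and leaving out models of late endosperm.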

Additional observations from a re-analysis of the deposited data

How the results depend on the processing

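With library totals the 4-fold rule called 285 higher and 175 lower at 4 DAP, and 93 higher and 49 lower in the technical pair. With TMM over the 2 compared libraries alone it called 293 and 169, and 95 and 48 in the technical pair. Under both, v is larger for the same reads, so the minimum of 10 admits more models. A minimum v of 1 gave 370 and 257, and 119 and 67 in the technical pair. A ratio of 2 in place of 4 gave 704 and 578, and 205 and 117 in the technical pair. The wider rule called 544 lower with a minimum v of 1. Among the 175 models called lower with library totals, 49 were higher at 6 DAP than at 2 DAP, beside 30 among the 104 of the report. Among the 145 called lower with a pseudocount of 0.1, 76 were higher at 2 DAP than at 0 DAP, beside 46 among the 104. These counts come from larger called sets, by construction. DESeq2 size factors called 190 higher and 90 lower, of which 184 and 90 were shared with the calls above, and moved the median of all models to 0.00. Thinned counts called 183 and 107. Of the list medians, the SBP list had -0.61 with a pseudocount of 0.1 and -0.29 at a mean v of 10, cell wall synthesis had 0.08 with library totals, and cell wall expansion had 0.03 at a mean v of 10. No paired analysis was possible because each stage compared has 1 library. No leave-one-out fit was possible for the same reason. The minimum v of 10 leaves models under 296 reads at 4 DAP and 340 reads at 3 DAP outside both rules.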
